A study of Mus musculus with 13 samples.

Results

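The levels of 10 immediate-early genes were described across the bulk RNA-Seq of mouse midbrain: Fos, Fosb, Jun, Junb, Egr1, Arc, Npas4, Nr4a1, Ier2 and Dusp1. They were chosen by name as classical members of the rapid transcriptional response, and all 10 of the 10 named genes were found among the 49315 genes counted. Libraries were made from whole midbrains of male mice, 8 to 12 weeks old, of 4 groups that all carried floxed Ripk3 alleles (Ripk3fl/fl) and all received tamoxifen (60 mg/kg on 5 days). Cre- mice (Ripk3fl/fl Aldh1l1Cre-) lacked the recombinase, whereas Cre+ mice (Ripk3fl/fl Aldh1l1Cre+) carried a tamoxifen-inducible Cre driven by the astrocyte promoter Aldh1l1, so that recombination was aimed at astrocytes and other cells of the tissue kept Ripk3. Mice then received 5 daily doses of saline or of MPTP (20 mg/kg), a toxin that kills dopaminergic neurons, and tissue was taken 3 days after the last dose. The Cre+ MPTP group held 4 mice and each of the other groups (Cre- Saline, Cre+ Saline, Cre- MPTP) held 3, with 1 library per mouse.

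Immediate-early genes are transcribed within minutes of a stimulus, without new protein synthesis, when kinases of the ERK, p38 and calcium pathways activate factors such as SRF, ELK1 and CREB that already sit on their promoters. Their transcripts are short-lived, and in brain they are used as markers of neuronal activity, although glia and endothelial cells also induce them after injury or handling. Most encode transcription factors. Fos, Fosb, Jun and Junb form the dimers of AP-1, Egr1 is a zinc finger factor, Nr4a1 is an orphan nuclear receptor, and Npas4 is a factor induced by calcium entry in neurons. Arc acts at synapses, where it drives the removal of AMPA receptors, Ier2 is a small nuclear protein, and Dusp1 is the phosphatase that switches off p38, JNK and ERK.

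Between 11489150 and 29397278 reads per library were assigned to genes, and Cre- MPTP mouse 1 had both the lowest total and the fewest genes with a count (21101). Ripk3, the floxed gene, had 4 to 40 counts in Cre- libraries and 4 to 19 in Cre+ libraries, too few to check the genotype of a mouse. Markers of dopaminergic neurons were present in every library (342 to 603 CPM, counts scaled to library size, summed over 7 genes). Cre- MPTP mouse 1 stood apart from every other library, and values without it are given beside the results of the members that it moved. In Cre- Saline mouse 1 the cortical factors Neurod6 and Tbr1 reached 19.5 and 17.7 CPM, whereas no other library passed 3.78 and 3.64 CPM. Summed over 7 cortical and hippocampal markers, Cre- MPTP mouse 1 was highest (180 CPM), then Cre- Saline mouse 1 (151 CPM), with at most 94.1 elsewhere. In Cre- MPTP mouse 1 this sum was not carried by Neurod6 and Tbr1, and levels in that library moved with GC content. Cre- MPTP mouse 1 also had the highest sums for striatal neurons (558 CPM, at most 147 elsewhere) and midbrain neurons (271, at most 149). The same held for cerebellar granule cells (123, at most 109) and endothelial cells (402, at most 308). Its sums for neurons (2452) and dopaminergic neurons (342) were lowest. The summed CPM of 5 pituitary markers was 606 and 445 in Cre+ Saline mice 1 and 3 and no more than 81.9 elsewhere, and that of 6 muscle markers was 6334 in Cre+ MPTP mouse 4 and no more than 147 elsewhere. These are bulk samples, in which fewer cells of a type and less RNA per cell cannot be told apart.

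The members lie on 8 different chromosomes of GRCm38. Junb and Ier2 are both on chromosome 8, at 84974484 to 84978718 and 84661331 to 84662852. Arc (74669083 to 74672570) and Nr4a1 (101254269 to 101274795) are both on chromosome 15. In the gene annotation Jun overlaps Junos and Junb overlaps Prdx2 on the other strand, and Dusp1 overlaps 4 genes, of which 2 are on its own strand. The kit kept the strand of the RNA, but whether the counting used it is not given in the sources used here, so reads of these overlapping stretches are uncertain.

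Promoter sequence of the reference genome is shown for 3 members whose groups did not overlap in 1 or more comparisons (Junb, Nr4a1 and Dusp1) and for Fos, the best known member, because the CREB-binding element, the CRE (TGACGTCA), and its core of 5 bases (TGACG) are the classical entry point of cAMP and calcium signals. RefSeq promoters of 7 of the 10 members were searched, each window running from 250 bases before to 50 after the RefSeq start. Arc, Ier2 and Egr1 were left out of the search and are named only, so the motif counts say nothing about them. The 250 bases before the start are printed from 5′ to 3′ on the strand of the gene, with the cores on either strand in capitals, from RefSeq on GRCm38.p6: Fos at chr12:85473640-85473889 (+), Junb at chr8:84978749-84978998 (-), Nr4a1 at chr15:101266596-101266845 (+) and Dusp1 at chr17:26508473-26508722 (-).
Fos: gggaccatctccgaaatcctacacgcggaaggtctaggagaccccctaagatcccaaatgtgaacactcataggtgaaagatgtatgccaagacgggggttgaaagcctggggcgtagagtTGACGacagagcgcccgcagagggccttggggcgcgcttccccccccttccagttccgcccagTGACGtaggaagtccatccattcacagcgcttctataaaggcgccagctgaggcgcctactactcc
Junb: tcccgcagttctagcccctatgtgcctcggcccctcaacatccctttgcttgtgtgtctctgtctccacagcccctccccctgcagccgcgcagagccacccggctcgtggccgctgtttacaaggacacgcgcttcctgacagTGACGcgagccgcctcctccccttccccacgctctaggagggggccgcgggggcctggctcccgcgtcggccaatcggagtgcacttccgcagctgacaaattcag
Nr4a1: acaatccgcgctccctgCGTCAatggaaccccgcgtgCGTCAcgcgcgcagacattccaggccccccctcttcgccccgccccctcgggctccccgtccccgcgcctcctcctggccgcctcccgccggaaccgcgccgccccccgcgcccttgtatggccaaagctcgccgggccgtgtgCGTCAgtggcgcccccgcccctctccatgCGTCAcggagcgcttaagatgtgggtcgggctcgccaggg
Dusp1: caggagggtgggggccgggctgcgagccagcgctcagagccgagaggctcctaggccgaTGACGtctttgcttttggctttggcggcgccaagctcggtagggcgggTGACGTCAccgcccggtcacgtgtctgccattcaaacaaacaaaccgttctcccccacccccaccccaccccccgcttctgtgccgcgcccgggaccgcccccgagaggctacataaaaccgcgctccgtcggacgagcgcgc
The core was found in 6 of the 7 windows, against 20.8% of all 32851 RefSeq promoters of the same length. Nr4a1 held 4 of them, at 233, 213, 69 and 40 bases before the start, and Fos held 2, at 129 and 66 bases before it. The full CRE was found in Dusp1 alone among the 7, beginning 143 bases before the start, where it overlaps 2 of the 3 cores of this window, and in 1.79% of all promoters. Fosb held 1 core, Junb 1 and Npas4 2, and Jun held none. The CArG box bound by SRF, the AP-1 site (TGANTCA) and the EGR site were searched on both strands in the same windows and were found in none of the 7, against 1.63%, 7.81% and 0.612% of all promoters. A match is a description of letters, and a window without one says nothing about more distant sites.

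**Figure D1:**
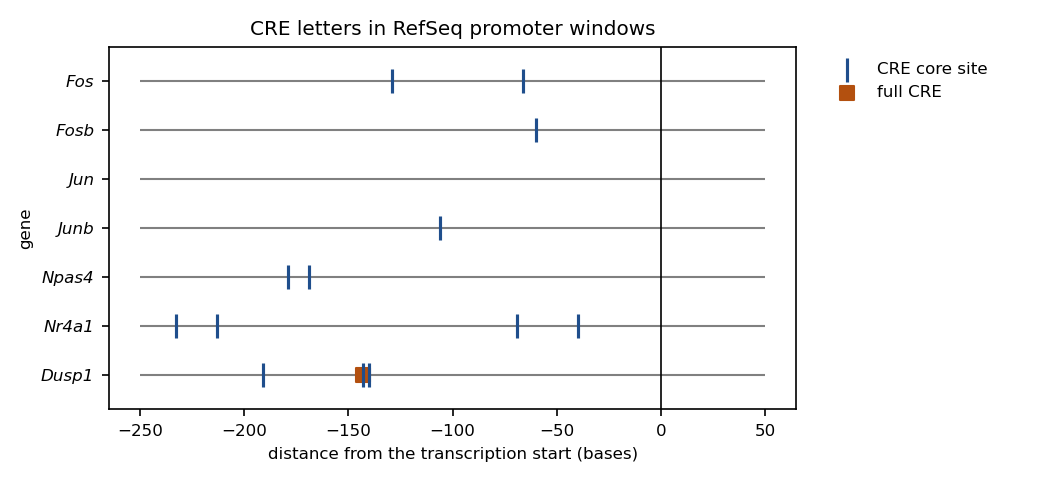
Positions of CRE cores (blue ticks) and of the full CRE (orange square) in the promoter windows of 7 members, with the distance from the RefSeq transcription start in bases on the horizontal axis and 1 line per gene. Nr4a1 has 4 cores and Jun has none.

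All 10 members passed the filter on low counts in every fit. Per length, the highest mean level over the 13 libraries was that of Jun (26.2 RPKM, the CPM divided by the exon length in kilobases), followed by Junb (22.3) and Dusp1 (21.2). Nr4a1 (14.2 RPKM), Egr1 (10.9), Fos (10.7), Arc (8.73) and Ier2 (8.07) came next. Npas4 (2.46 RPKM) and Fosb (0.981) were the lowest, and Fosb was read from as few as 24 counts in Cre- MPTP mouse 1. Over the libraries the highest CPM exceeded the lowest 18.2 times for Junb, 11.9 times for Ier2, 7.70 times for Dusp1 and 6.35 times for Jun. In each of these 4 genes the highest library was Cre- MPTP mouse 1. For the other 6 members the ratio was between 2.56 and 4.88, and none of them had its highest value in that library.

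**Figure D2:**
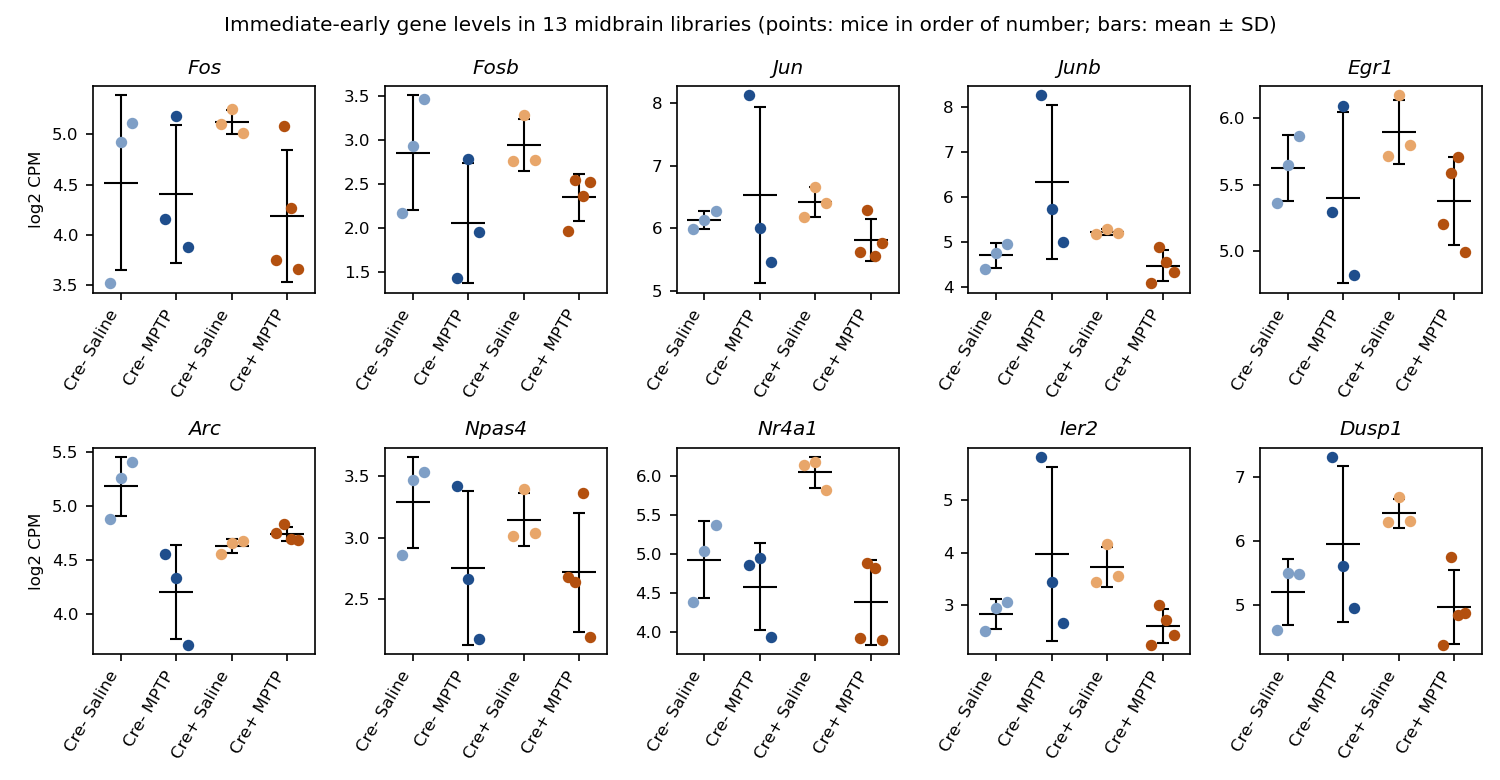
Level of each member as log2 CPM in every library, with 1 panel per gene on its own scale, points for mice in order of number and black bars for the group mean ± SD (n = 3, and n = 4 for Cre+ MPTP). Jun, Junb, Ier2 and Dusp1 each have 1 point far above the rest in Cre- MPTP, Arc is highest in Cre- Saline, and Nr4a1 is highest in Cre+ Saline.

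The first comparison asked how MPTP changed the members in littermates with intact Ripk3. Arc was the 1 member called, at the threshold of 0.05 on the p-value that edgeR's quasi-likelihood test gave after adjustment over 19360 genes by the Benjamini-Hochberg method, and it fell. In the same comparison 3.18% of all genes were called, 15% had an unadjusted p under 0.05, and 15.1% had CPM ranges that did not overlap. Of the 10 members, 4 had a log2 fold change above 0 and 6 below it, with a median of -0.14 against 0.03 over all genes, and 2 had groups that did not overlap, Junb and Arc. DESeq2 called 3 members, Junb and Ier2 higher and Arc lower (6.03% of all genes), and limma voom called 2, Arc and Npas4, both lower (13.6% of all genes). Voom gave Cre- MPTP mouse 1 a quality weight of 0.0385, against 0.406 to 3.54 for the other libraries. Cre- MPTP mouse 1 therefore weighed little in the voom results of every comparison. These still differed from edgeR without that mouse, which called 1 member here (9.38% of all genes) and 0 with MPTP in Cre+ mice (0.166%).

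Arc measured 29.3, 38.2 and 42.4 CPM in the 3 Cre- Saline mice and 23.4, 20.1 and 13 CPM in the 3 Cre- MPTP mice. The groups did not overlap, and Cre- MPTP mouse 3 was the lowest of all 13 libraries. The mean was 36.6 ± 6.70 CPM (SD, n = 3) with saline and 18.8 ± 5.31 CPM (SD, n = 3) with MPTP, a 1.95-fold difference (log2 fold change -0.97, SE 0.20, adjusted p = 0.0195, edgeR). In Cre+ mice the corresponding values were 23.5, 25.1 and 25.4 CPM with saline and 26.8, 28.4, 25.9 and 25.6 CPM with MPTP, and all 7 Cre+ libraries lay below the lowest Cre- Saline library and above the highest Cre- MPTP library. The call in Cre- mice was kept without Cre- MPTP mouse 1 (log2 fold change -1.15, adjusted p = 0.000937, edgeR). It was lost without Cre- Saline mouse 2 (log2 fold change -0.95, adjusted p = 0.0714, edgeR) or mouse 3 (-0.86, adjusted p = 0.0751, edgeR), and when only these 2 groups were fitted (-0.97, adjusted p = 0.365, edgeR). Cre- Saline mouse 1, the library with the highest Neurod6 and Tbr1, had the lowest Arc of its group, and the lowest level of each other member as well. Without that mouse and Cre- MPTP mouse 1 together the log2 fold change of Arc was -1.28 (adjusted p = 0.000467, edgeR), an alternative added after the values were seen.

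Junb, the AP-1 subunit that often opposes Jun, measured 20.8, 26.9 and 30.6 CPM in Cre- Saline and 304, 52.8 and 31.9 CPM in Cre- MPTP. The groups did not overlap, but the distance between them was set by mouse 1: the log2 fold change came to 2.31 (SE 0.63, adjusted p = 0.0823, edgeR) with it and 0.70 (SE 0.23, adjusted p = 0.076, edgeR) without it. Ier2 measured 5.64, 7.65 and 8.25 CPM with saline and 55.9, 10.9 and 6.24 CPM with MPTP, and its log2 fold change went from 1.74 (SE 0.62, adjusted p = 0.211, edgeR) to 0.25 without mouse 1. Both genes thus had 1 Cre- MPTP library within or near the saline range and 1 far above it.

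Dusp1 measured 24.1, 45.3 and 44.6 CPM in Cre- Saline and 159, 48.5 and 30.7 CPM in Cre- MPTP, with a log2 fold change of 1.05 (SE 0.52, adjusted p = 0.358, edgeR) that was 0.06 without mouse 1. Jun measured 63.8, 70.0 and 77.1 CPM with saline and 279, 64.2 and 43.9 CPM with MPTP. Its log2 fold change over all libraries was 0.87 (SE 0.52, adjusted p = 0.428, edgeR) and had the opposite sign, -0.38, without mouse 1. In mice 2 and 3 Dusp1 lay just above and within the saline range, and Jun lay within and below it.

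The remaining 5 members gave log2 fold changes close to or below 0 in Cre- mice. Fosb ranged from 4.40 to 10.95 CPM with saline and from 2.60 to 6.81 CPM with MPTP (log2 fold change -0.77, SE 0.37, adjusted p = 0.349, edgeR). Npas4 ranged from 7.18 to 11.5 CPM and from 4.46 to 10.6 CPM (log2 fold change -0.50, SE 0.35). Fos, from 11.4 to 34.5 CPM with saline and from 14.6 to 36.3 CPM with MPTP, and Egr1, from 41.1 to 58.2 CPM and from 28.1 to 68.0 CPM, both had a log2 fold change of -0.14, and Nr4a1 had one of -0.34. The groups overlapped in all 5 genes.

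**Figure D3:**
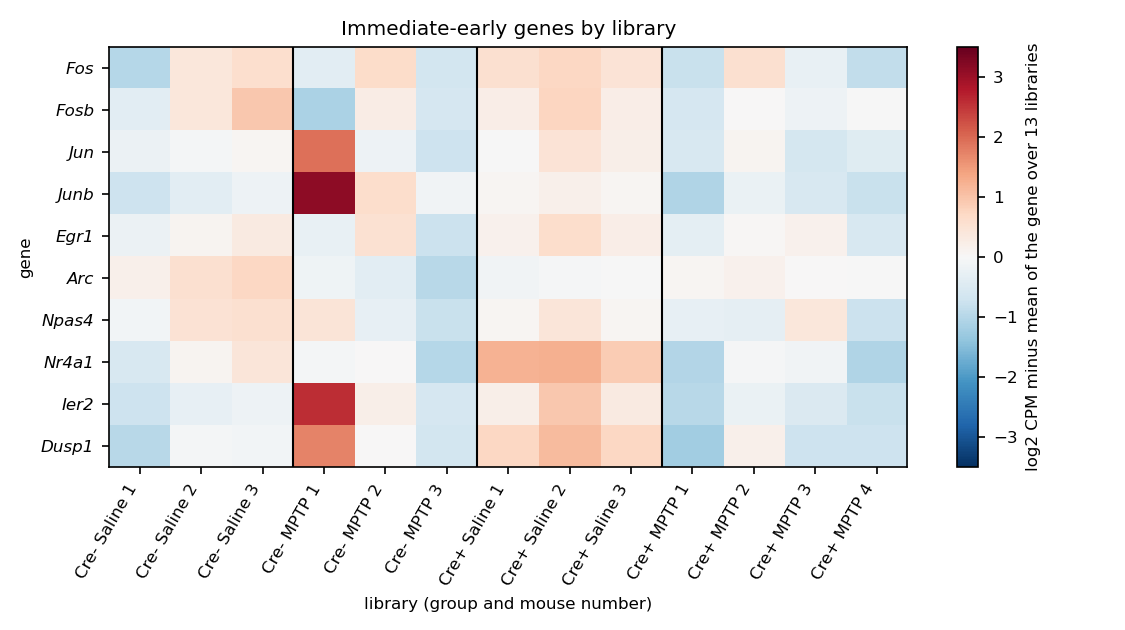
Log2 CPM of the 10 members (rows) in each of the 13 libraries (columns, grouped as labelled), after subtracting the mean of the gene over all libraries, from blue (below its mean) to red (above it). Cre- MPTP mouse 1 is dark red for Jun, Junb, Ier2 and Dusp1 but not for Fos or Fosb, and the Cre+ Saline libraries are red for Nr4a1 and Dusp1.

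The members that were high in Cre- MPTP mouse 1 were compared with the GC content of their transcripts, since in this library the level of a gene moved with its GC content. The 1930 genes with the highest GC content had a median log2 CPM 1.66 above the mean of Cre- MPTP mice 2 and 3, and the 1930 with the lowest had a median of -1.19. Junb (GC content 62.6%, percentile 98.4 of the genes tested) was 2.89 above the other 2 mice on the log2 scale and Ier2 (60.9%, percentile 96.8) was 2.75 above them. Jun (55.5%, percentile 80.6) was 2.39 above and Dusp1 (54.0%, percentile 73) was 2.04 above, both in the middle class of genes, whose median was -0.26. This class ran from 41.0% to 57.9%. Both genes lay in its GC-rich part, so its median is not that of genes of like GC content. Arc, with 59.0% and percentile 93, was 0.53 above, and Fosb, with 56.0% and percentile 82.6, was at -0.95. After a GC trend was removed, the log2 fold change of Junb in Cre- mice was 1.27, smaller than the 2.31 without this step, and past the threshold (adjusted p = 0.0197, edgeR, 4.68% of all genes called), and that of Arc was -1.18 (adjusted p = 0.00997, edgeR), in an alternative added after the values were seen. The parts of GC content, of depth and of the tissue taken in the high values of single members were not tested.

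**Figure D4:**
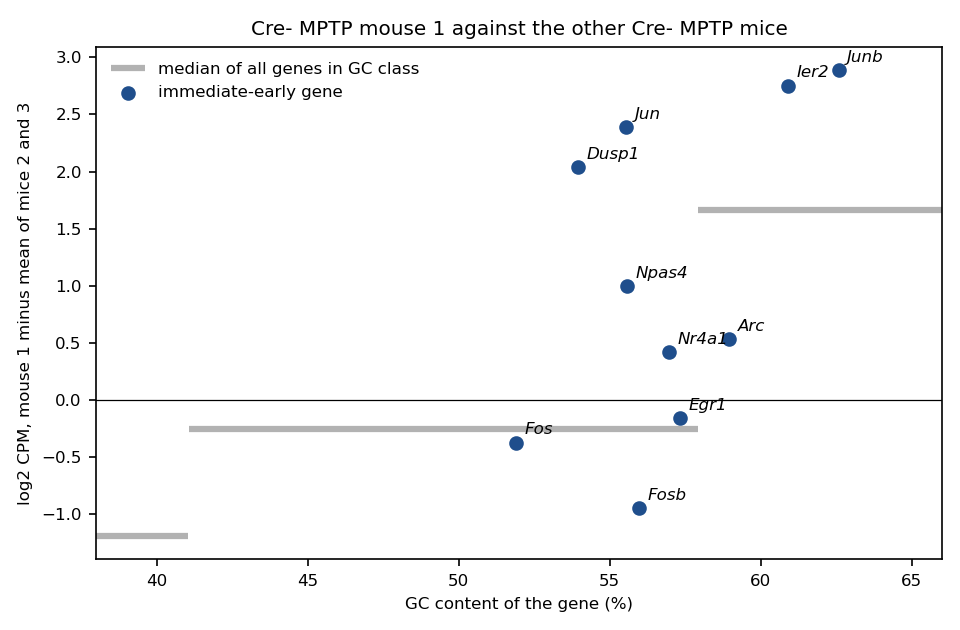
Log2 CPM of Cre- MPTP mouse 1 minus the mean of Cre- MPTP mice 2 and 3 (vertical axis) against the GC content of the gene (horizontal axis, percent). Points are the 10 members and grey lines are the medians of all genes in the low, middle and high class of GC content, of which the outer classes run past the axis. Junb, Ier2, Jun and Dusp1 lie more than 2 above 0.

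The second comparison asked how MPTP changed the members in mice with Cre aimed at astrocytes. No member and no other gene was called by edgeR (0% of all genes), while DESeq2 called 1 member, Nr4a1 (0.441% of all genes), and limma voom called 5, Jun, Junb, Nr4a1, Ier2 and Dusp1 (1.52% of all genes), all lower with MPTP. Of the members, 2 (Nr4a1 and Dusp1) had an unadjusted p under 0.05, as had 3.47% of all genes. Of the 10 log2 fold changes, 9 were below 0, with a median of -0.67 against 0.0034 over all genes. In 7 members the groups did not overlap, against 9.66% of all genes: Fosb, Junb, Egr1, Nr4a1, Ier2 and Dusp1 lay lower in every MPTP library, and Arc lay higher.

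Nr4a1 measured 70.9, 72.5 and 56.7 CPM in Cre+ Saline and 15, 29.5, 28.2 and 14.8 CPM in Cre+ MPTP. The lowest saline mouse was above the highest MPTP mouse. The mean was 66.7 ± 8.72 CPM (SD, n = 3) and 21.9 ± 8.03 CPM (SD, n = 4), a 3.05-fold difference (log2 fold change -1.61, SE 0.32, adjusted p = 0.247, edgeR). The adjusted p was 0.00193 with DESeq2 and 0.00145 with limma voom, and it ranged from 0.0537 to 0.939 in edgeR when each of the 13 libraries was left out in turn.

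Dusp1 measured 78.5, 103 and 78.8 CPM in Cre+ Saline and 20.6, 53.8, 28.7 and 29.2 CPM in Cre+ MPTP, with a log2 fold change of -1.39 (SE 0.48, adjusted p = 1.00, edgeR). Ier2 measured 10.8, 17.9 and 11.7 CPM with saline and 4.69, 8, 6.52 and 5.38 CPM with MPTP, with a log2 fold change of -1.14 (SE 0.56). In both genes mouse 2 was the highest of the 4 MPTP mice and still below every saline mouse. Junb measured 36.1, 39.0 and 36.4 CPM with saline and 16.7, 29.5, 23.3 and 20.1 CPM with MPTP, with a log2 fold change of -0.73 (SE 0.56). Its standard error came from all 13 libraries and was 0.19 without Cre- MPTP mouse 1. Without that library the adjusted p of Nr4a1, Dusp1 and Ier2 was 0.0537, 0.0733 and 0.0796 (edgeR).

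The other members in Cre+ mice had log2 fold changes between -0.82 and 0.11. Fos ranged from 32.1 to 37.9 CPM with saline and from 12.6 to 33.7 CPM with MPTP, where only mouse 2 was within the saline range, for a log2 fold change of -0.82 (SE 0.43). Fosb ranged from 6.70 to 9.68 CPM with saline and from 3.81 to 5.76 CPM with MPTP (log2 fold change -0.61, SE 0.34), and Egr1 from 52.6 to 72.0 CPM and from 31.7 to 52.2 CPM (-0.51, SE 0.27). Neither overlapped between the groups, but in Egr1 the nearest mice almost met. Jun (72.6 to 101 CPM with saline and 47.3 to 78.7 CPM with MPTP, log2 fold change -0.59, SE 0.48) and Npas4 (8 to 10.4 CPM and 4.50 to 10.2 CPM, -0.38, SE 0.32) overlapped. Arc had a log2 fold change of 0.11 (SE 0.19), smaller than its standard error.

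**Figure D5:**
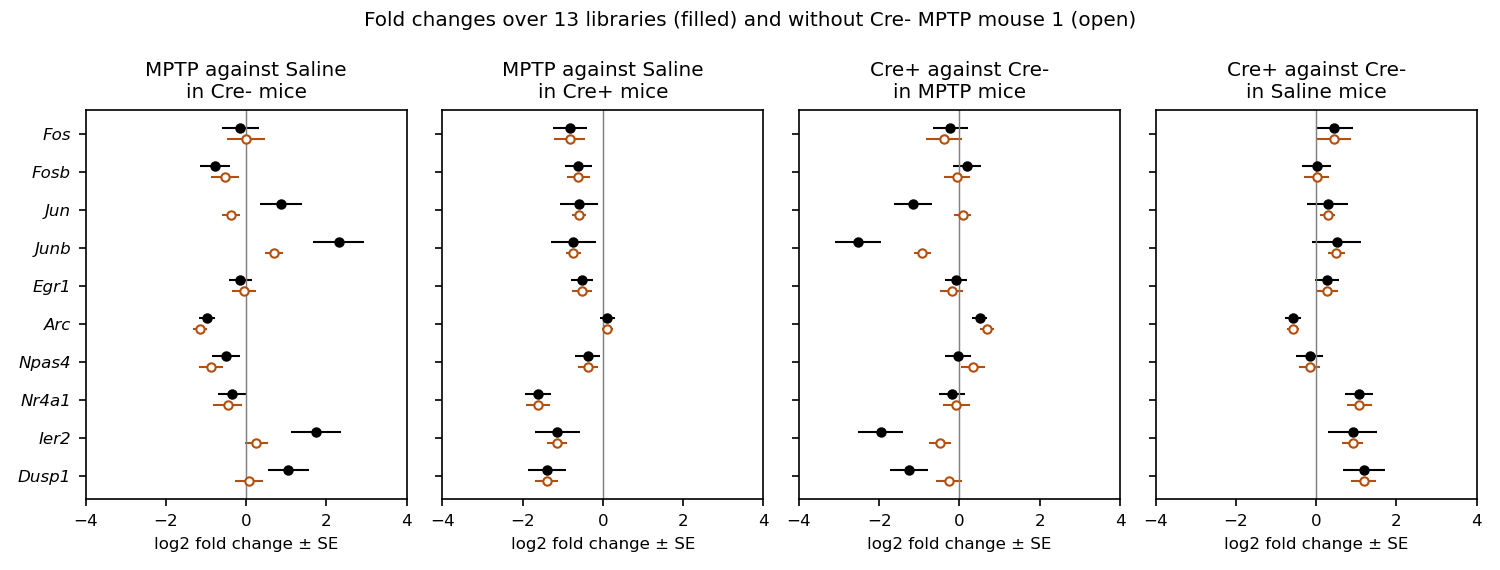
Log2 fold changes ± SE of the 10 members in 4 comparisons, over all 13 libraries (filled black) and without Cre- MPTP mouse 1 (open orange). In Cre- mice and between genotypes after MPTP the values of Jun, Junb, Ier2 and Dusp1 move toward 0 without that mouse, whereas the values in Cre+ mice and between saline groups keep their place.

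The third comparison set Cre+ against Cre- mice after MPTP. No member was called by edgeR, against 1.54% of all genes, and DESeq2 called Junb and Ier2 lower (4.44% of all genes) while limma voom called Junb lower and Arc higher (6.32% of all genes). An unadjusted p under 0.05 was found for 5 members, against 19% of all genes, namely Jun, Junb, Ier2 and Dusp1 lower and Arc higher in Cre+ mice. Junb and Arc had groups that did not overlap, against 11.3% of all genes. The log2 fold change of Junb was -2.53 (SE 0.58, adjusted p = 0.0522, edgeR) over all libraries. It was past the threshold without Cre- MPTP mouse 1 (-0.93, adjusted p = 0.0328, edgeR), mouse 2 (-2.87, adjusted p = 0.0221, edgeR) or mouse 3 (-2.98, adjusted p = 0.0146, edgeR), and the size was set by mouse 1. In the other 10 refits that omitted 1 library it did not pass (adjusted p up to 0.169 without Cre+ MPTP mouse 1, edgeR), nor did it when only the 2 groups were fitted (adjusted p = 0.413, edgeR).

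Ier2 had a log2 fold change of -1.97 (SE 0.57, adjusted p = 0.138, edgeR) between the MPTP groups. It was called without Cre- MPTP mouse 2 (-2.29, adjusted p = 0.0361, edgeR) or mouse 3 (-2.42, adjusted p = 0.0309, edgeR), and was -0.48 without mouse 1. Dusp1 (-1.26, SE 0.48) and Jun (-1.16, SE 0.48) were at -0.27 and 0.08 without mouse 1. Arc had a log2 fold change of 0.51 (SE 0.19, adjusted p = 0.205, edgeR) and was called without mouse 1 (0.69, adjusted p = 0.0376, edgeR). Fos, Fosb, Egr1, Npas4 and Nr4a1 had log2 fold changes between -0.22 and 0.18, with overlapping groups.

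The fourth comparison set Cre+ against Cre- mice given saline. No gene was called by edgeR (0% of all genes), and neither DESeq2 (0.0106% of all genes) nor limma voom (0.0155%) called a member. Of the members, 3 had an unadjusted p under 0.05, against 0.909% of all genes, and in 5 members the groups did not overlap, against 11.6% of all genes. Nr4a1 (56.7 to 72.5 CPM in Cre+ Saline and 20.8 to 41.3 CPM in Cre- Saline) had a log2 fold change of 1.08 (SE 0.35, unadjusted p = 0.00892, adjusted p = 1, edgeR). Dusp1 (78.5 to 103 CPM and 24.1 to 45.3 CPM) had one of 1.19 (SE 0.52) and Arc (23.5 to 25.4 CPM and 29.3 to 42.4 CPM) one of -0.57 (SE 0.20). Junb (log2 fold change 0.51, SE 0.61) and Ier2 (0.91, SE 0.61) were also higher in every Cre+ Saline library. The pituitary markers, high in Cre+ Saline mice 1 and 3, were at 20.9 CPM in mouse 2, and Nr4a1 (72.5 CPM), Dusp1 (103 CPM) and Ier2 (17.9 CPM) were highest of that group in mouse 2. The part of pituitary tissue in these values was not tested.

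The Cre+ Saline libraries enter both the second and the fourth comparison, so the values are best read side by side. For Nr4a1 the group means were 66.7 CPM in Cre+ Saline and 31.6, 25.0 and 21.9 CPM in Cre- Saline, Cre- MPTP and Cre+ MPTP, the last 3 of which overlapped. For Dusp1 the mean was 86.6 ± 13.9 CPM (SD, n = 3) in Cre+ Saline, 37.99 ± 12.01 CPM (SD, n = 3) in Cre- Saline, 79.3 ± 69.4 CPM (SD, n = 3) in Cre- MPTP, where mouse 1 was far above the other 2, and 33.1 ± 14.4 CPM (SD, n = 4) in Cre+ MPTP.

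The interaction, which asks whether the response to MPTP differed between genotypes, was not past the threshold for any member (edgeR), against 0.0103% of all genes called. Of the members, 5 had an unadjusted p under 0.05, against 5.76% of all genes. Junb had a log2 difference of responses of -3.04 (SE 0.84, adjusted p = 0.321, edgeR), Ier2 of -2.88 (SE 0.84), Dusp1 of -2.45 (SE 0.71), Nr4a1 of -1.27 (SE 0.47) and Arc of 1.08 (SE 0.28, adjusted p = 0.267, edgeR). Ier2 was at -1.39 (adjusted p = 0.118, edgeR), Dusp1 at -1.46 (adjusted p = 0.183, edgeR) and Nr4a1 at -1.15 without Cre- MPTP mouse 1. Junb lay higher with MPTP in Cre- and lower in Cre+ mice, with no overlap in either. Arc lay lower with MPTP in Cre- mice without overlap. In Cre+ mice its groups almost met, at most 25.4 CPM with saline and at least 25.6 CPM with MPTP. Its log2 fold change there (0.11, SE 0.19) was smaller than its standard error. Arc was also lower in Cre+ than in Cre- Saline mice (-0.57, SE 0.20, not called). Without Cre- MPTP mouse 1 Junb was called at -1.43 (adjusted p = 0.0402, edgeR) and Arc at 1.26 (adjusted p = 0.0246, edgeR), with 1.03% of all genes. This was the only 1 of 13 refits omitting 1 library in which either was called. The adjusted p reached 0.714 for Junb and 0.577 for Arc in the others (edgeR). DESeq2 called Junb, Arc and Ier2 in the interaction (1.19% of all genes) and limma voom called Junb, Arc and Dusp1 (3.56% of all genes).

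Single markers of several cell types differed with MPTP in Cre- mice, the comparison in which Arc fell. Not every list moved as a whole, and 3.18% of all genes were called. All 4 neutrophil markers that could be tested were called higher than in saline, with a summed level of 8.95 to 57.6 CPM in Cre- MPTP, 0.119 to 0.840 in Cre- Saline, 0.244 to 1.71 in Cre+ Saline and 0.534 to 3.13 in Cre+ MPTP, while the defining marker Ly6g had at most 3 counts in any library. Of 6 astrocyte markers, 2 (Gfap and Aldh1l1) were called higher, 3 had a log2 fold change above 0 and 3 below it, with a median of -0.05, and the summed level of the 6 was 3852 to 4387 CPM in Cre- MPTP, 2170 to 2709 in Cre- Saline, 2648 to 2918 in Cre+ Saline and 2673 to 3119 in Cre+ MPTP. Of 5 oligodendrocyte markers, 1 was called lower, and the 5 summed to 8754 to 11320 CPM in Cre- MPTP, 11865 to 16167 in Cre- Saline, 14292 to 16011 in Cre+ Saline and 10455 to 13714 in Cre+ MPTP, so that they were lower with MPTP without overlap in both genotypes. None of 5 markers of pericytes and smooth muscle was called (edgeR), but 3 had an unadjusted p under 0.05, all lower, and they summed to 67.1 to 148 CPM in Cre- MPTP, 171 to 197 in Cre- Saline, 177 to 185 in Cre+ Saline and 153 to 227 in Cre+ MPTP. Of 5 microglia markers P2ry12 alone was called, lower (log2 fold change -2.79), and the median of the 5 was -0.17, with 4 below 0 and 1 above it. Of 5 markers of meningeal fibroblasts Dcn alone was called, higher (1.52). The other direction was more frequent in that list, with 3 below 0, of which 2 had an unadjusted p under 0.05, and a median of -0.10. The 6 neuronal markers summed to 4269 to 4627 CPM in Cre- Saline and 2452 to 4676 in Cre- MPTP, where mouse 1 was lowest, and Arc was the highest of its group in that mouse. The part of these cell types in the level of Arc was not tested.

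Within groups the members varied together. After each library was centered on its group mean, all 45 pairs of members had a Pearson r above 0 over the 12 libraries other than Cre- MPTP mouse 1, with a median of 0.80 and a range of 0.18 to 0.94. With that library included the median over 13 libraries was 0.61, and 42 of the 45 pairs were above 0. The points share normalization and libraries, and these values are a description without a test. No value for pairs of other genes was computed, so they do not show that this was particular to the members. The mean of the members was highest within its group in Cre- MPTP mouse 1, Cre+ MPTP mouse 2, Cre- Saline mouse 3 and Cre+ Saline mouse 2, and lowest in Cre- MPTP mouse 3, Cre+ MPTP mouse 1, Cre- Saline mouse 1 and Cre+ Saline mouse 1. Fosb was the member least like the mean of the 10 over all 13 libraries (Pearson r 0.34), and Npas4 was least like it without Cre- MPTP mouse 1 (Pearson r 0.67).

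The genes whose levels within groups were most like the mean of the members over 13 libraries were Map6d1 (Pearson r 0.94), Desi1, Sik1, Itgb4, Apold1, Spata18, 4930513N10Rik, Klf2, Gm45540 and Hr (0.89). Without Cre- MPTP mouse 1 they were Btg2 (Pearson r 0.96), 4930513N10Rik, Apold1, Klf2, Itgb4, Gm45540, Rab7b, Opalin, Serinc5 and Gm16083 (0.91). Btg2, Klf2, Sik1 and Apold1 are themselves known as rapidly induced genes. Btg2, an antiproliferative cofactor, measured 58.2, 60.6 and 54.8 CPM in Cre+ Saline and at most 27.4 CPM in any other library, with a log2 fold change of -1.93 (SE 0.42, adjusted p = 0.314, edgeR) for MPTP in Cre+ mice.

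Other genes of the rapid response were read from lists. Of 17 other immediate-early transcription factors, 2 were called higher and none lower with MPTP in Cre- mice (3.18% of all genes called), with a median log2 fold change of 0.68 against 0.03 over all genes. They were Maff, a small MAF factor, with 2.18 to 3.40 CPM in Cre- Saline and 114, 19.2 and 24.2 CPM in Cre- MPTP (log2 fold change 4.29, SE 0.75, adjusted p = 0.00647, edgeR, and 3.03 without mouse 1), and Csrnp1 (1.34, SE 0.30, adjusted p = 0.0284, edgeR, and 0.95 without mouse 1). Both were called lower in Cre+ than in Cre- mice after MPTP (1.54% of all genes called). In Cre+ mice no factor of this list was called with MPTP, and 4 had an unadjusted p under 0.05, all lower, against 3.47% of all genes. Atf3, a stress-induced partner of Jun, measured 3.86, 4.92 and 3.88 CPM in Cre+ Saline and at most 2.60 CPM in any other library, and like Nr4a1 it was highest in this group.

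Of 20 other immediate-early effectors, 5 were called higher and none lower with MPTP in Cre- mice, beside the same 3.18% of all genes. Ptgs2, the inducible cyclooxygenase, measured 1.57 to 2.69 CPM in Cre- Saline and 12.7, 61.3 and 53.8 CPM in Cre- MPTP (log2 fold change 4.27, SE 0.71, adjusted p = 0.00509, edgeR), so that mouse 1 was the lowest of the 3. Ier3 (2.32, SE 0.36), Gadd45g (2.22, SE 0.52), Arl4d (1.91, SE 0.37) and Zfp36 (1.70, SE 0.41) were the others, and without mouse 1 their values were 1.74, 0.996, 1.46 and 1.66. Zfp36, which destabilizes mRNA with AU-rich elements, measured 15.7, 24.4 and 16.6 CPM in Cre+ Saline and 4.10 to 12.1 CPM in Cre+ MPTP. Ier3, Gadd45g and Arl4d were called lower in Cre+ than in Cre- mice after MPTP (1.54% of all genes called). Over 13 refits that each omitted 1 library, the call in Cre- mice was kept 13 times for Maff, Ptgs2 and Ier3, 11 times for Arl4d, 10 times for Csrnp1, 5 times for Zfp36 and 4 times for Gadd45g, and the direction held each time. The losses came without Cre- Saline mouse 1 or 2 for Arl4d (log2 fold changes 1.70 and 1.77), without any 1 of the 3 Cre- Saline mice for Csrnp1 (1.15 to 1.46), and for Zfp36 and Gadd45g also without libraries outside the 2 groups compared, while Gadd45g kept its call without Cre- MPTP mouse 1. Between genotypes after MPTP it was kept 11 times for Ier3, 10 times for Maff and Arl4d, 6 times for Gadd45g and 5 times for Csrnp1, and leaving out Cre+ MPTP mouse 1 or 3 ended the call of each of these genes. Without Cre- MPTP mouse 1 the log2 fold change between genotypes was -2.44 for Maff and -1.17 for Gadd45g, against -3.69 and -2.40 with it.

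Of 13 MAP kinase feedback inhibitors, Errfi1, an inhibitor of the EGF receptor, rose with MPTP in Cre- mice (log2 fold change 1.97, SE 0.35, adjusted p = 0.00802, edgeR, and 1.38 without mouse 1). Errfi1 and Spry1 were called lower in Cre+ than in Cre- mice after MPTP (1.54% of all genes called). The call of Errfi1 was kept in 12 of the 13 fits with a library left out for MPTP in Cre- mice and in 10 between genotypes after MPTP, and that of Spry1 in 6. Errfi1 lost the former call without Cre- Saline mouse 1 (log2 fold change 1.90) and the latter without Cre+ MPTP mouse 1, 3 or 4. None of the 21 upstream kinases and factors was called in any comparison (edgeR). With MPTP in Cre- mice 1 of them had an unadjusted p under 0.05 on the high side and 2 on the low side, against 15% of all genes, and the median log2 fold change was 0.01, while each other comparison had 1 in all. None of the 12 genes known to follow later in neuronal activity was called in any comparison either (edgeR), with 2 higher and 1 lower at an unadjusted p under 0.05 with MPTP in Cre- mice, 4 lower between genotypes after MPTP (19% of all genes) and 0 in the others. The largest value among them was that of Pim1 (log2 fold change 1.59, adjusted p = 0.137, edgeR).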

How the data were processed

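Total RNA of each midbrain was sequenced from libraries that kept the strand of the RNA. The authors used Trimmomatic 0.36 for trimming and STAR 2.5.2b for mapping to GRCm38, counted unique hits per gene with featureCounts of Subread 1.5.2, and deposited these counts without normalization, 1 table of 49315 genes per mouse. The strand setting of the counting is not given in the sources used here. Symbols of 49056 genes and positions came from GENCODE M21. The 19360 genes that reached 10 counts in 3 or more libraries were fitted with edgeR 4.0.16 in R 4.3.3 (TMM normalization, 1 term per group over 13 libraries, two-sided quasi-likelihood test), and p-values were adjusted by Benjamini-Hochberg over all genes tested in each comparison. A gene was called at an adjusted p under 0.05. The SE is the absolute log2 fold change divided by the square root of F. CPM use TMM factors, and log2 CPM a prior count of 2. DESeq2, which the authors used without stating a version, was run here as 1.42.0. It and limma 3.58.1 (voom with sample quality weights) were alternatives. The members and the gene lists were chosen with earlier results of these data known. All members were named in each comparison, and of the lists the genes called in any comparison with up to 4 of the largest values, while likeness was ranked by Pearson r; Btg2, Atf3 and Zfp36 in Cre+ Saline were picked after their values were seen. The fits were tested on simulated data. Nothing in the labels states that libraries share a batch.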

Additional observations from a re-analysis of the deposited data

How the results depend on the processing

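The number of members called depended on the tool and on single libraries. For MPTP in Cre- mice, 1 member was called by edgeR (3.18% of all genes) and 3 by DESeq2 (6.03%). The count was 2 without a filter (1.59%), by limma voom (13.6%) and with a GC trend removed (4.68%). It was 0 on the 2 groups alone (0.6%), and 0 to 3 when each library was left out (1.61% to 9.38%). For MPTP in Cre+ mice the count was 0 by edgeR (0% of all genes), 1 by DESeq2 (0.441%) and 5 by limma voom (1.52%). It was 1 without Cre- MPTP mouse 1 and Cre- Saline mouse 1 (0.187%), and 0 with any 1 library left out (0% to 0.166%). Between genotypes after MPTP it was 0 by edgeR (1.54% of all genes), and 2 by DESeq2 (4.44%), limma voom (6.32%) and without these 2 mice (4.04%). It was 1 without a filter (0.873%) and with a GC trend removed (2.33%), and 0 to 2 with libraries left out (0.212% to 9.51%). For the interaction it was 0 by edgeR (0.0103% of all genes), and 3 by DESeq2 (1.19%) and limma voom (3.56%). It was 1 without these 2 mice (0.963%), and 0 to 2 with libraries left out (0% to 1.03%). Between saline groups it was 0 in all alternatives run. The cause was not tested. Mouse numbers gave no sign of pairing the libraries. Of 18 pairs with the same number in different groups, 3 had a correlation of deviations above 0.1 (median -0.014). Of 45 pairs with different numbers, 8 had one above 0.1 (median -0.0047). With so few mice per group these values cannot exclude a pairing. With the replicate number as a block 0 members were called with MPTP in Cre- mice (Arc -0.98, adjusted p = 0.0742, edgeR), and Junb between genotypes after MPTP was at -2.18 (adjusted p = 0.387, edgeR).

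Log2 fold changes changed sign as follows. With MPTP in Cre- mice, leaving out single libraries gave -0.66 to 0.14 for Fos, -0.38 to 1.28 for Jun and -0.58 to 0.11 for Egr1. Limma voom gave -0.45 for Jun and -0.21 for Dusp1, and leaving out the 2 mice gave -0.44 and -0.18. Between genotypes after MPTP, leaving out single libraries gave -0.60 to 0.29 for Fos, -0.068 to 0.63 for Fosb, -1.57 to 0.080 for Jun, -0.34 to 0.34 for Egr1, -0.30 to 0.34 for Npas4 and -0.44 to 0.014 for Nr4a1. Limma voom gave -0.028 for Fosb, 0.043 for Jun, 0.047 for Egr1 and 0.40 for Npas4, the GC trend 0.074 for Egr1, 0.18 for Npas4 and 0.052 for Nr4a1, the replicate block 0.059 for Egr1 and 0.11 for Npas4, and the 2 mice left out -0.067 for Fosb, 0.079 for Jun and 0.34 for Npas4. For Fosb between saline groups limma voom gave -0.047, the 2 mice left out -0.26, and single libraries left out -0.26 to 0.37. In the interaction the latter gave -0.19 to 0.62 for Fosb, -0.62 to 0.070 for Egr1 and -0.15 to 0.50 for Npas4.

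With 3 or 4 mice per group, a fold change within the spread between mice was not detectable, and Fosb and Npas4 had the fewest counts.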

Other observations

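Glucocorticoid-induced genes and heat-shock genes were read beside the immediate-early genes, since handling and stress can also induce them. Of 10 glucocorticoid-induced genes, 8 were called higher and none lower with MPTP in Cre- mice (edgeR, adjusted p under 0.05, 3.18% of all genes called), with a median log2 fold change of 2.12 against 0.03 over all genes. Fkbp5, a chaperone of the glucocorticoid receptor, measured 20.0 to 23.3 CPM in Cre- Saline, 182, 128 and 128 CPM in Cre- MPTP and 23.8 to 54.3 CPM in Cre+ MPTP (log2 fold change 2.75, SE 0.28, adjusted p = 0.000628, edgeR). The kinase Sgk1 measured 37.2 to 94.5 CPM in Cre- Saline and 280, 263 and 292 CPM in Cre- MPTP. In both genes Cre- MPTP mice 2 and 3 lay far above saline together with mouse 1, which was not so for Jun or Dusp1. In Cre+ mice none of the 10 was called with MPTP (edgeR), and 4 had an unadjusted p under 0.05, all higher, against 3.47% of all genes. Between genotypes after MPTP 6 were called lower in Cre+ mice, against 1.54% of all genes called. With each library left out in turn, Fkbp5, Sgk1, Zbtb16, Cdkn1a and Mt2 kept their call in Cre- mice 13 times, Errfi1 12 times, Sult1a1 11 times and Ddit4 3 times.

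Of 7 heat-shock genes, Hspb1 rose with MPTP in Cre- mice (388, 57.5 and 34.5 CPM against 8.03 to 10.4 CPM with saline, log2 fold change 4.16, SE 0.80, adjusted p = 0.0118, edgeR, and 2.37 without mouse 1) and fell in Cre+ against Cre- mice after MPTP. Leaving out each library in turn kept the first call 10 times and the second 2 times, and without Cre- MPTP mouse 1 the second was -1.35. Hspa1a, the inducible HSP70, measured 55.8 CPM in Cre- MPTP mouse 1 and 5.90 to 10.6 CPM in the other 12 libraries. Dnajb1 measured 200.5 CPM in that mouse and 61.3 to 82.2 CPM elsewhere, whereas Hspa8 (731 CPM) and Hsp90aa1 (391 CPM), abundant chaperones, were lowest there, against 1364 to 1668 and 1063 to 1378 CPM elsewhere. The 7 genes summed to 2043 CPM in that mouse and to 2767 to 3399 CPM in the others.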
